A study of Arabidopsis thaliana with 12 samples.

Results

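The genes AT1G79080, AT2G17670 and AT3G51320 of Arabidopsis thaliana (thale cress) encode pentatricopeptide repeat proteins. They were followed on 12 arrays of total RNA, 3 genes among the 691 that had a probe annotated to a single gene. They were picked by name from earlier results of these data, in which their signals were lower in the cold. Their difference between temperatures is therefore given as a description, with no test, and supports nothing. The choice had no numeric threshold. The family name comes from the rule that selected them, since the gene tables used here list each of them by its locus identifier alone.

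All plants were wild type of the ecotype Columbia 0 and were kept in medium light. One group, ML_20C, was grown at 20 °C and has 6 arrays. The other, ML_4C, was held at 4 °C for 24 h and also has 6 arrays. The submitters call that cold treatment photoinhibitory, meaning that light damages photosystem II faster than the plant repairs it. The comparison asks which transcripts differ in level between these temperatures in the same light. Neither the organ, the plant age nor the number of plants behind an array is stated in the labels. Of 12 green tissue markers 7 were measured, and their summed intensity was 48.7 to 53.1 at 20 °C and 52.7 to 70.7 at 4 °C. PSBW alone made up most of that sum in the cold, and without it the sum was 23.5 to 26.2 at 20 °C and 12.6 to 19.2 at 4 °C. Of the 7, PSBW passed as higher, PSAN, SBPASE and LHB1B2 as lower, and PSBY, PSB27 and PRK did not pass at an adjusted p of 0.05 in limma over pair means. Of 10 flower and pollen markers 2 were measured, SPL and AGL54, and their summed intensity was 0.899 to 0.990 and 0.303 to 0.370. None of the 10 root or 9 seed markers was measured on such a probe. In such bulk RNA, fewer cells of a type and less RNA per cell cannot be told apart.

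Pentatricopeptide repeat proteins form one of the largest protein families of land plants. They are encoded in the nucleus and most are imported into chloroplasts or mitochondria. There a row of helical repeats binds a particular stretch of single-stranded RNA, with each repeat reading roughly a single base. Members of the P class tend to stabilise, process or help splice organelle transcripts, while many of the PLS class direct the editing of cytidine to uridine. Their own transcripts are usually scarce in leaves compared with those of photosynthesis proteins.

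Each value is a deposited intensity on a linear scale, in arbitrary units. Within each group arrays 1 and 2, arrays 3 and 4, and arrays 5 and 6 were much alike. The median absolute log2 difference was 0.0774 to 0.0925 within such pairs at 20 °C and 0.139 to 0.165 at 4 °C, against 0.176 to 0.284 and 0.281 to 0.344 between arrays of different pairs of a group. Means and SDs were therefore taken over the 3 pair means of a group (n = 3). The labels do not say that the pairs came from separate plants, so the SDs and p-values reflect how far these pairs differ, for technical or other reasons. The number of arrays and pairs limits the precision.

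AT1G79080 was lower at 4 °C on every array. At 20 °C its intensity was 0.809 and 0.865 on arrays 1 and 2, 0.799 and 0.880 on arrays 3 and 4, and 0.764 and 0.762 on arrays 5 and 6. At 4 °C it was 0.224 and 0.269, 0.176 and 0.210, and 0.248 and 0.130 in the same order. The groups did not overlap, and the lowest array at 20 °C was 2.83 times the highest at 4 °C. The warm arrays formed a narrow band, while the cold ones were spread more widely in proportion to their level. Arrays 5 and 6 at 4 °C were farthest apart, by 0.93 on the log2 scale, whereas no pair at 20 °C differed by more than 0.14. Pair means averaged 0.813 ± 0.0436 at 20 °C and 0.210 ± 0.0320 at 4 °C (SD, n = 3). The log2 change, 4 °C minus 20 °C, was -1.99 ± 0.16 (SE from the fit over all features), a ratio of geometric means of 3.98.

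AT2G17670 was also lower on every cold array, but its warm values fell into 2 levels. At 20 °C its intensity was 1.39 and 1.43 on arrays 1 and 2, 0.527 and 0.631 on arrays 3 and 4, and 1.22 and 1.26 on arrays 5 and 6. Arrays 3 and 4 thus stood well below the other 4, with a mean of 0.579 against 1.32. At 4 °C its intensity was 0.218 and 0.348, 0.238 and 0.288, and 0.399 and 0.301 in the same order. The groups did not overlap, but the lowest warm array was only 1.32 times the highest cold one. Pair means averaged 1.08 ± 0.438 at 20 °C and 0.299 ± 0.0455 at 4 °C (SD, n = 3). The log2 change was -1.78 ± 0.37 (SE), a ratio of geometric means of 3.43. Without arrays 3 and 4 at 20 °C it was -2.18.

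AT3G51320 had a low signal at both temperatures and was listed at 0 on 3 arrays, all at 4 °C. At 20 °C its intensity was 0.107 and 0.118 on arrays 1 and 2, 0.119 and 0.154 on arrays 3 and 4, and 0.0972 and 0.0981 on arrays 5 and 6. Their mean over pairs was 0.116 ± 0.0197 (SD, n = 3). At 4 °C it was 0.00898 and 0.0408 on arrays 1 and 2, was listed at 0 on arrays 3, 4 and 5, and was 0.0462 on array 6. The 2 arrays of the last pair thus disagree, with 0 on array 5 and a value above 0 on array 6. All 6 cold values lay below all 6 warm ones, and the lowest warm value was 2.11 times the highest cold value. No mean or fold is given for the cold group, because a listed 0 may be a failed reading.

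**Figure D1:**
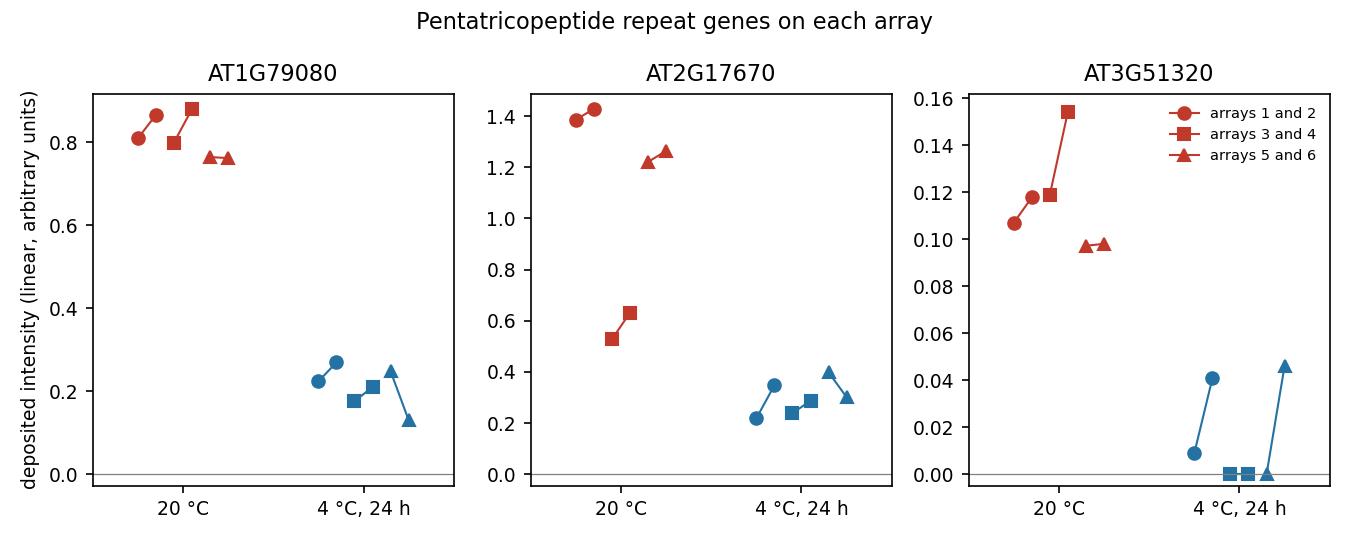
Deposited intensity (linear, arbitrary units) of AT1G79080, AT2G17670 and AT3G51320 on each of 6 arrays at 20 °C (red) and 6 at 4 °C (blue). Each symbol is 1 array and lines join the arrays of a pair. The groups do not overlap for any of these genes, arrays 3 and 4 at 20 °C sit apart for AT2G17670, and AT3G51320 is listed at 0 on 3 cold arrays.

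The 3 genes differed in how their warm values were arranged. Arrays 3 and 4 at 20 °C were low for AT2G17670 but held the highest single value of both AT1G79080 and AT3G51320. In log2 pair means the SD at 20 °C was 0.70 for AT2G17670, 0.08 for AT1G79080 and 0.24 for AT3G51320. Over both groups, 85.8% of the 3107 features above 0 on all arrays had a smaller SD of log2 pair means than AT2G17670, and 28.5% a smaller one than AT1G79080. A drop of arrays 3 and 4 below the other 4 warm arrays as large as that of AT2G17670, 1.93 times or more, was found in 58 of these features, or 1.87%. Some features with a large spread between pairs stood next to each other in probe order. PSB27 and the features beside it, for example, had SEs of the log2 change of 0.75 to 0.80. The part of probe position in the spread of AT2G17670 was not tested.

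Lower signals at 4 °C were common on this array, and the members have to be read against that. All 6 cold values lay below all 6 warm ones in 1651 of the 3378 features above 0 on at least 1 array, or 48.9%, and in 52.1% of the 676 such genes with a single name. Since these genes were chosen in this contrast, nothing is read from their own separation. The median log2 change over the 3378 features was -0.74. Relative to that median AT1G79080 stood at -1.25 and AT2G17670 at -1.03. Among the 3107 features above 0 on all arrays, 10.4% had a more negative log2 change than AT1G79080 and 14.9% a more negative one than AT2G17670.

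The general shift also moved with brightness. When the 3107 features were split into 10 equal groups by their mean intensity over all arrays, the median log2 change went from -0.99 in the dimmest group to 0.33 in the brightest, with the lowest median, -1.18, in the third group. AT1G79080 lay in group 6, counted from the dimmest, whose median change was -0.86, and AT2G17670 in group 7, whose median was -0.72. Within these groups 13.9% and 15.4% of features had a more negative change than the gene itself. The part of brightness in the change of these genes was not tested.

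**Figure D2:**
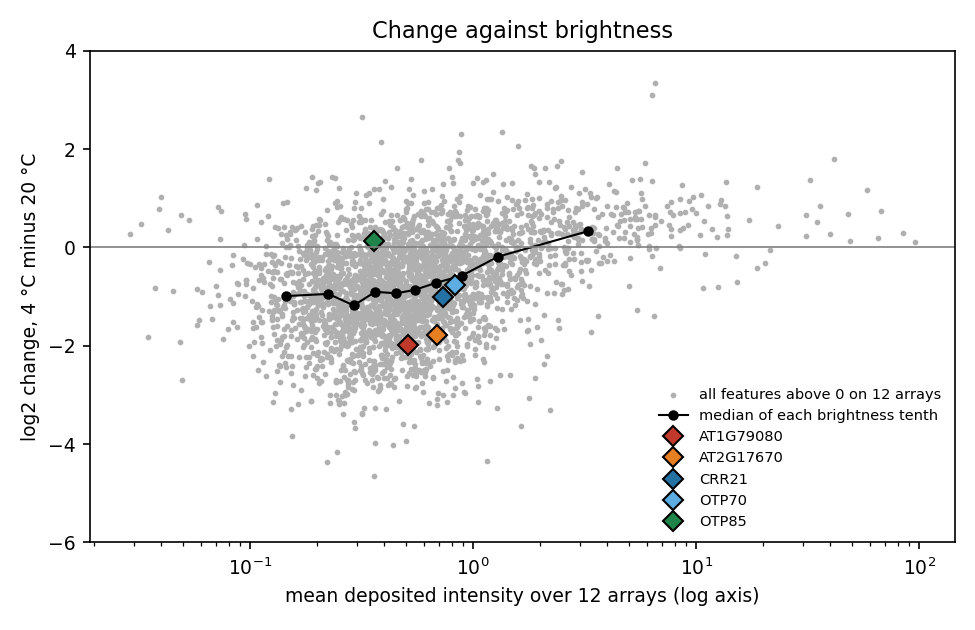
Log2 change (4 °C minus 20 °C, vertical axis) against mean deposited intensity over 12 arrays (horizontal, log axis) for the 3107 features above 0 on all arrays, 1 of which lies outside the vertical range. The black line joins the medians of 10 equal brightness groups. AT1G79080 at -1.99 and AT2G17670 at -1.78 lie below the line, CRR21 and OTP70 close to it and OTP85 above it.

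How arrays are scaled to each other set the size of these changes. As deposited, all arrays had nearly the same mean, 1.02 to 1.09, but their medians were 0.536 to 0.569 at 20 °C and 0.276 to 0.315 at 4 °C. Centring each array on its median moved the median change of all features to 0.17, quantile normalization to 0.05 and cyclic loess to -0.0004. AT1G79080 then stood at -1.08, -1.13 and -1.06 on the log2 scale. AT2G17670 stood at -0.86, -1.06 and -1.004, with SEs of 0.39, 0.47 and 0.38 against 0.37 as deposited. Both genes kept a negative change under each of these scalings, while the size shrank by about the shift of the general median. Relative to the median of all features AT1G79080 ranged from -1.25 to -1.06 and AT2G17670 from -1.11 to -1.003 over these scalings.

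AT3G51320 depended on the scaling more than the other members. After median centring all 6 cold arrays were still below the lowest warm array, but the gap between the groups was narrow, at -2.55 for the lowest warm and -2.59 for the highest cold value on the log2 scale. After quantile normalization or cyclic loess only 4 of 6 cold arrays were below the lowest warm one. The 3 cold arrays listed at 0 entered these counts at their array's smallest value above 0, which put them low by construction. What the counts can show therefore rests on cold arrays 1, 2 and 6. The rank of its probe within each array shows the same. Between 7.77% and 10.9% of features were dimmer than AT3G51320 on the warm arrays. On cold arrays 1, 2 and 6, where it was above 0, 7.48%, 10.5% and 11.1% were dimmer. These shares count features listed at 0 as dimmer, and cold array 1 had 226 of them, more than any warm array. Fewer features above 0 were therefore dimmer than AT3G51320 on cold array 1 than on any warm array. Only on cold arrays 2 and 6 was its place among the probes near that at 20 °C. On the 3 cold arrays where it was listed at 0 it was at the bottom of the list. In all, 154 to 162 features were listed at 0 on a warm array and 181 to 226 on a cold array. A gene above 0 on all 6 warm arrays and at 0 on at least 3 cold ones was seen in 60 of 3378 features (1.78%) and in 9 of 676 single-name genes (1.33%).

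The other genes of the family came from a list of 80 symbols of characterised pentatricopeptide repeat proteins and from a search of the gene tables for the family's name. This found OTP70, CRR21 and OTP85 on single-name probes. The list is incomplete, because the tables give no description of a gene and 599 of the 691 genes appear by locus identifier alone. Family members that the tables do not give under a listed symbol were not counted. The counts that follow hold for these 3 genes and not for the family. As deposited, 2 of these 3 fell, 0 rose and 1 did not pass at an adjusted p of 0.05 in limma over pair means. Over all 3378 features 49.6% passed as lower and 6.87% as higher, and over the 676 single-name genes 52.1% and 5.92%. The median log2 change of the 3 genes was -0.77, against -0.74 for all features.

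CRR21, an editing factor of the chloroplast ndhD transcript, which encodes a subunit of the NADH dehydrogenase-like complex, had intensities of 0.834 to 1.23 at 20 °C (median 0.936) and 0.411 to 0.554 at 4 °C (median 0.492). The groups did not overlap. Its log2 change was -1.01 ± 0.16 (SE), with an adjusted p of 0.0035 in limma. OTP70, a chloroplast factor linked to splicing of the rpoC1 transcript of the plastid RNA polymerase, had 0.955 to 1.18 at 20 °C (median 1.03) and 0.523 to 0.776 at 4 °C (median 0.573), again without overlap. Its log2 change was -0.77 ± 0.17 (SE), with an adjusted p of 0.013 in limma. Both changes were close to the median of all features, by -0.26 and -0.02. Neither call held under another scaling: CRR21 stood at -0.09, -0.36 and -0.39 and OTP70 at 0.15, -0.20 and -0.26 after median centring, quantile normalization and cyclic loess, with adjusted p-values in limma of 0.096 to 0.67 and 0.33 to 0.58.

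OTP85, another editing factor of ndhD, was the listed family gene that did not pass. It had 0.297 to 0.417 at 20 °C (median 0.324) and 0.295 to 0.549 at 4 °C (median 0.332), and the groups overlapped. Arrays 1 and 2 at 4 °C, at 0.464 and 0.549, were above all the warm arrays, and the other 4 cold arrays lay within or just under the warm range. Its log2 change of 0.14 ± 0.24 (SE) did not pass as deposited (adjusted p = 0.64 in limma) and was -0.081 without arrays 1 and 2 at 4 °C. Relative to the median of all features it stood at 0.88. It passed as higher under each other scaling, at 1.05, 1.09 and 1.12 on the log2 scale, with adjusted p-values in limma of 0.0087 to 0.0095. With median centring 30.0% of all features passed as higher and 18.9% as lower. The shares were 19.5% and 20.5% with quantile normalization, and 19.1% and 20.8% with cyclic loess.

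**Figure D3:**
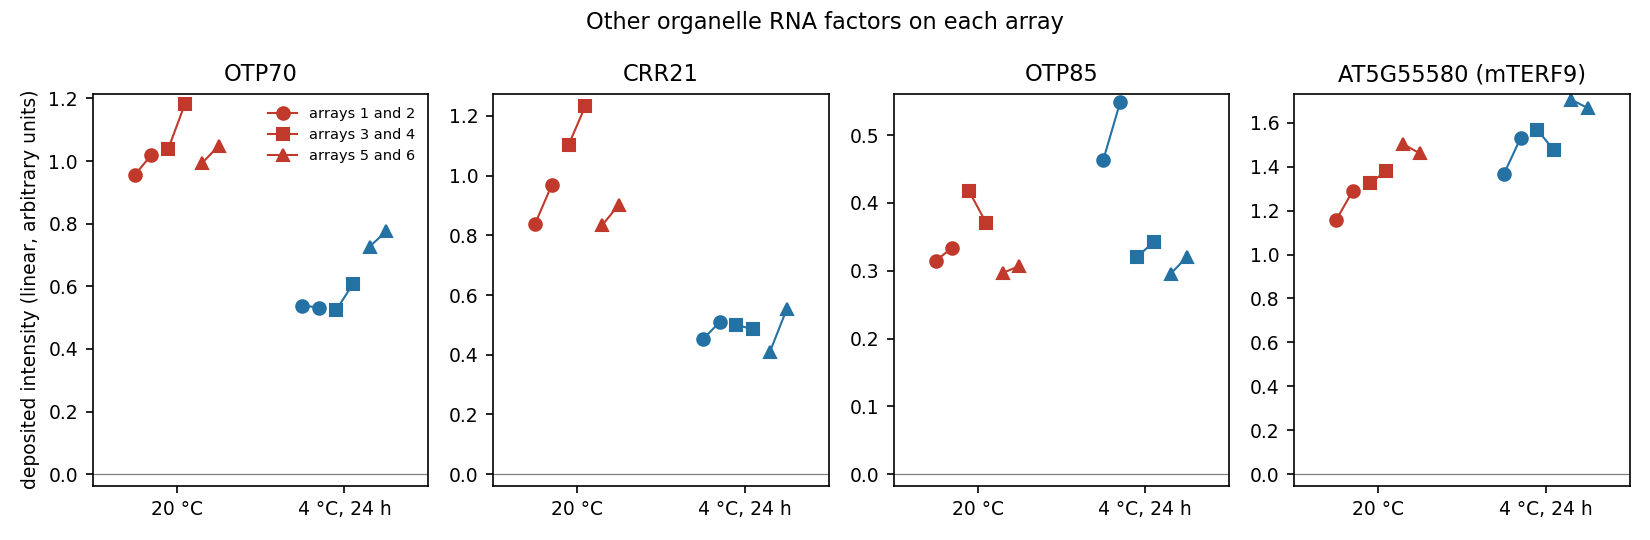
Deposited intensity (linear, arbitrary units) of OTP70, CRR21, OTP85 and AT5G55580 (mTERF9) on each of 6 arrays at 20 °C (red) and 6 at 4 °C (blue), with lines joining the arrays of a pair. OTP70 and CRR21 are lower on all cold arrays, OTP85 overlaps between the groups with arrays 1 and 2 at 4 °C on top, and AT5G55580 overlaps as well.

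Beyond the family, a list of 82 symbols and several name patterns for other factors of organelle RNA metabolism found 1 gene on a single-name probe. This list too misses genes that the tables give by locus alone, so it does not describe such factors as a group. AT5G55580, listed under the synonym mTERF9, belongs to the relatives of a mitochondrial transcription termination factor. Other relatives of that factor, from a cluster on chromosome 1, were also measured in this series and are missed by the list. The values of AT5G55580 do not stand for them. AT5G55580 had 1.16 to 1.503 at 20 °C (median 1.35) and 1.37 to 1.71 at 4 °C (median 1.55). The groups overlapped, and its log2 change of 0.20 ± 0.14 (SE) did not pass as deposited (adjusted p = 0.27 in limma). It passed as higher after median centring, at 1.11 (adjusted p = 0.0034 in limma), and not after quantile normalization or cyclic loess, at 0.42 and 0.30 (adjusted p = 0.058 and 0.15 in limma).

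**Figure D4:**
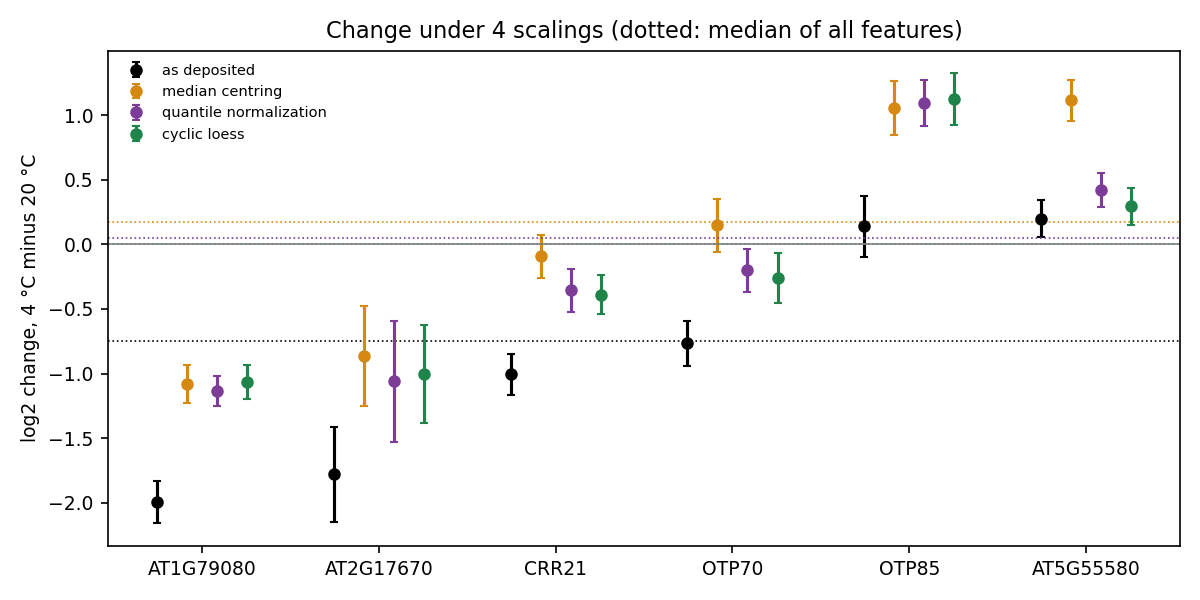
Log2 change (4 °C minus 20 °C) with its SE for AT1G79080, AT2G17670, CRR21, OTP70, OTP85 and AT5G55580 as deposited and after median centring, quantile normalization and cyclic loess. Dotted lines mark the median of all features under each scaling. AT1G79080 and AT2G17670 stay below these medians, and OTP85 and AT5G55580 stay above them, under all 4 scalings.

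The single-name genes whose pattern over the 12 arrays was most like that of a member were found by the root mean square difference between log2 profiles, each after subtraction of the gene's own mean. The comparison covered 612 other genes above 0 on all arrays, and no likeness was computed for AT3G51320, which is listed at 0 on some. Closest to AT1G79080 were AT1G62010 at 0.15, GH9B11 at 0.16 and AT3G59980 at 0.23, against a median of 0.75 over the genes compared. Their log2 changes were -1.91, -1.91 and -1.78. The step between temperatures is part of each profile, so changes near that of the member follow from how these genes were found. AT2G17670 was 0.51 away from AT1G79080, which placed it at rank 130.

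Closest to AT2G17670 were AT2G36920 at 0.32, AT3G52960, a plastid type II peroxiredoxin, at 0.35 and AT5G35100 at 0.37, against a median of 0.81. Their log2 changes were -1.76, -1.62 and -1.80. These 3 genes shared the low arrays 3 and 4 at 20 °C. AT2G36920 had a mean of 0.409 there and 0.681 on the other 4 warm arrays. AT3G52960 had 2.27 and 3.26, and AT5G35100 had 0.538 and 1.46. The low pair of AT2G17670 and its step between temperatures both helped to make these profiles alike. Their presence in these genes is therefore a description and not a separate result.

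**Figure D5:**
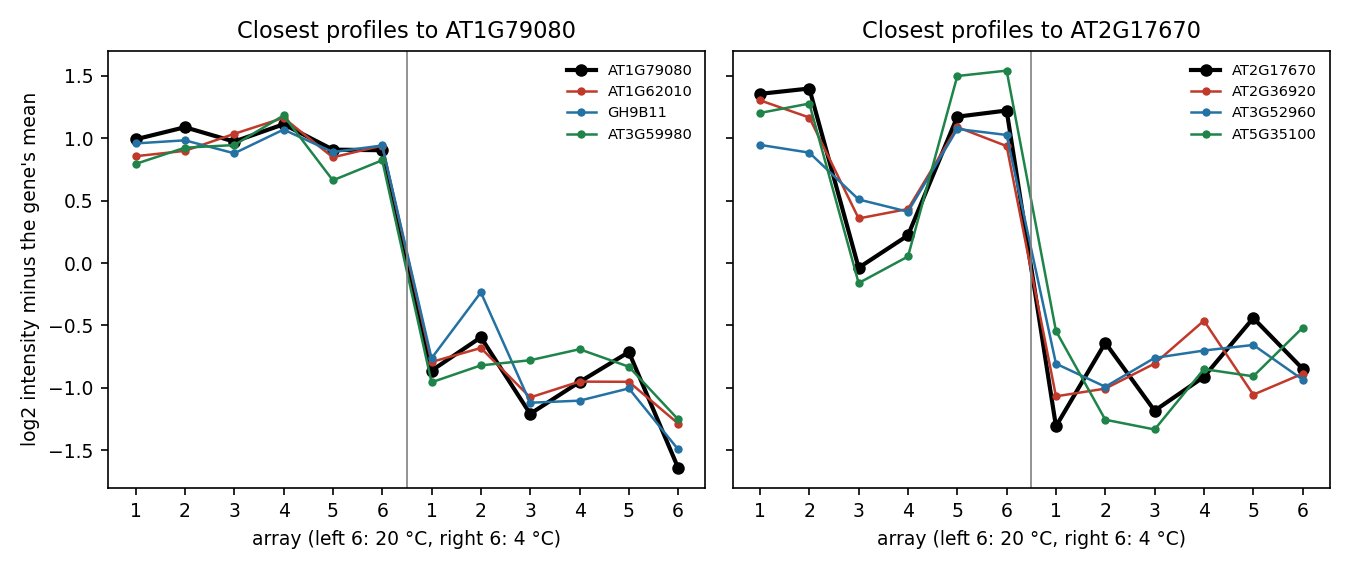
Log2 intensity minus the gene's own mean on the 12 arrays (20 °C left of the line, 4 °C right) for AT1G79080 and AT2G17670 (black) and the 3 closest single-name genes of each (colours). The genes closest to AT2G17670 dip on arrays 3 and 4 at 20 °C, and those closest to AT1G79080 do not.

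In the RefSeq gene table each member is a protein-coding gene that overlaps no other listed gene. AT1G79080 and AT3G51320 have 1 listed transcript each and AT2G17670 has 2, which the array value does not separate. AT1G79080 lies between AT1G79075, a noncoding RNA gene, and AT1G79090, AT2G17670 between AT2G17660 and AT2G17680, and AT3G51320 between AT3G51310 and AT3G51325. None of these 6 neighbours had a single-name probe, so their levels were not analysed here. Whether a probe also binds transcripts of related family members was not tested.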

How the data were processed

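Total RNA of 12 samples was measured on arrays, 1 per sample, 6 for each group. The authors deposited 1 linear intensity per probe and array, with no scanner, background method or scaling named in the labels. The deposited values have nearly equal array means, no value above 100 and zeros on every array. They may therefore have been scaled before deposit, in a way that is not known. With means this close, changes as deposited are nearly the same as changes relative to the total of the array. Of 3439 probes 692 had 1 gene name in the platform annotation, 690 of them matched to RefSeq (assembly TAIR10.1), 870 had several and 1877 none. Probes of 1 gene were averaged, which gave 3438 features, of which 60 at 0 on all arrays were left out of counts. The deposited intensity was transformed to log2, with each 0 replaced by its array's smallest value above 0, and the 2 arrays of each pair were averaged. The test was limma 3.58.1 (lmFit, eBayes; R 4.3.3), two-sided, with Benjamini-Hochberg adjustment over all 3438 features. The fit was checked on simulated data.

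Gene lists could be matched by symbol or synonym only, so they are incomplete. The members and gene lists were chosen with earlier results of these data known, and the pairing of arrays was taken from those results. Genes named are the 3 members, measured genes of the family found by symbol or synonym, called genes of the other organelle RNA list, and measured markers. The 3 closest profiles of each of 2 members are named as well. AT5G55580 did not pass as deposited and is named in addition, after its values were seen, as the single gene of its list. Alternatives covered scaling, the unit of replication, blocks, an offset of 0.111, leaving out the 860 dimmest features, the variance model, and leaving out arrays or pairs. Depth does not apply to arrays.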

Additional observations from a re-analysis of the deposited data

How the results depend on the processing

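Scaling mattered most. After median centring, quantile normalization and cyclic loess, 1015, 658 and 646 features were called higher and 638, 692 and 703 lower, against 232 and 1675 as deposited. Of the 3 other family members known by symbol 1 was called higher and 0 lower under each of these, against 0 and 2. CRR21 and OTP70, called lower as deposited, were called under none of these 3, and OTP70 reversed to 0.15 with median centring. The log2 change of AT1G79080 was -1.08, -1.13 and -1.06 and that of AT2G17670 -0.86, -1.06 and -1.004. With an offset of 0.111 before log2, AT1G79080 stood at -1.54. These scalings equalise medians or distributions that differed between the groups as deposited. Which scaling is nearer to the RNA was not tested.

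Counting each of the 12 arrays as a sample called 420 features higher, and a random block for the pair 353. Across groups, deviations of same-numbered pairs correlated at -0.30, -0.01 and 0.12, and those of same-numbered arrays at -0.23 to 0.14. Such weak correlations cannot show whether samples of the same number were paired by design, and the labels do not say. With the replicate number as a block over 12 arrays 424 features were called higher, and AT5G55580 passed as higher. With the block on pair means AT5G55580 did not pass, and no count here moved by over 1.5 times.

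Leaving out each array or pair in turn gave 142 to 237 features called higher and 1383 to 1685 lower. The lowest count of higher features, 142, came without arrays 5 and 6 at 20 °C. AT1G79080 ranged from -2.15 to -1.84 and AT2G17670 from -2.18 to -1.53, and of the 3 other family members known by symbol 2 were called lower and 0 higher each time. OTP85 ranged from -0.081 to 0.28, and its sign reversed without arrays 1 and 2 at 4 °C alone. For AT3G51320, values near 0 limit what the arrays can resolve.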
